A study of Mus musculus with 4 samples.

Results

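Autophagy delivers cytoplasmic material to lysosomes for breakdown, and 36 genes of that process were followed in mouse regulatory T cells, the CD4+ T cells marked by the transcription factor Foxp3 that restrain immune responses. The genes were chosen by name from the known autophagy and mitophagy machinery, and all 36 were found among the 50600 genes of each count table. RNA of C57BL/6NJ primary regulatory T cells was sequenced as 4 libraries that form 1 group, with no treatment, genotype or time set against it. The labels link a protocol for differentiating CD4+ T cells, and the headers of the tables name the aligned files with the words activated and 48h. Age is given as unknown and sex as not collected. Each library has its own biosample under 1 shared donor record, and the labels do not say which animals or cultures these came from. The spreads below therefore measure only the differences between these samples, which may be technical. The p-values ask whether a ratio between genes keeps its direction over these same samples, and carry the same limit.

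An autophagosome begins when the ULK1 kinase complex, held back by mTORC1 and stimulated by AMPK, activates a lipid kinase complex built on Pik3c3 and Becn1. The phospholipid PI3P made there recruits WIPI proteins, and 2 ubiquitin-like conjugation reactions then fix ATG8 proteins (the LC3 and GABARAP subfamilies) to the growing membrane. Receptors such as Sqstm1 tie cargo to ATG8 proteins. For mitochondria dedicated receptors do so, and the kinase Pink1 marks depolarised mitochondria for this route, which is called mitophagy. In regulatory T cells, loss of Atg5 or Atg7 in mice is known to impair the survival and stability of the lineage.

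Library depth was between 43821767 and 73819468 fragments counted to genes. Levels are given as TPM, a measure of transcript abundance: the counts divided by the deposited exon length of the gene and scaled to the same total in each library, which allows levels of different genes to be compared. The labelled cell type was checked with 11 regulatory T and pan T cell markers, all of which were present. Foxp3 averaged 289 ± 23.5 TPM, the highest markers were Il2ra, at 1488 ± 19.4 TPM, and Trac, at 1053 ± 43.9 TPM, and the lowest were Ikzf4, at 104 ± 7.09 TPM, and Ikzf2, at 13.2 ± 1.99 TPM (SD, n = 4). Of 13 markers of B cells, myeloid cells, CD8+ T cells, natural killer cells, erythroid cells, platelets, epithelium and fibroblasts, 0 reached 1 TPM in all 4 libraries, 5 had no count in any library (S100a9 and Siglech among them), Epcam and Hbb-bt were highest at 0.727 and 0.218 TPM on average, and their summed level was 0.910 to 2.07 TPM. Fewer cells that use a gene and less RNA per cell cannot be told apart in such bulk RNA.

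All 36 genes reached a TPM of at least 1 in every library, the level called expressed here. The same level was reached by 22.9% of all genes and by 47.2% of protein-coding genes. A level of at least 10 TPM in every library was reached by 31 of the 36 genes, against 16.3% of all genes and 36.4% of protein-coding genes. Tfeb, Atg14, Optn, Atg10 and Wipi1 were below 10 TPM in at least 1 library. Gabarap and Sqstm1 were the 2 genes above 100 TPM in all 4 libraries, a level that 3.98% of all genes and 9.09% of protein-coding genes reached. The members stood in the middle range of expressed genes: the median of their mean levels was 28.5 TPM, beside 33.7 TPM for the 10274 expressed protein-coding genes, and 15 of the 36 were above that second value. Summed over the 36 genes, the libraries held 1294, 1346, 1323 and 1338 TPM in replicates 1 to 4.

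**Figure D1:**
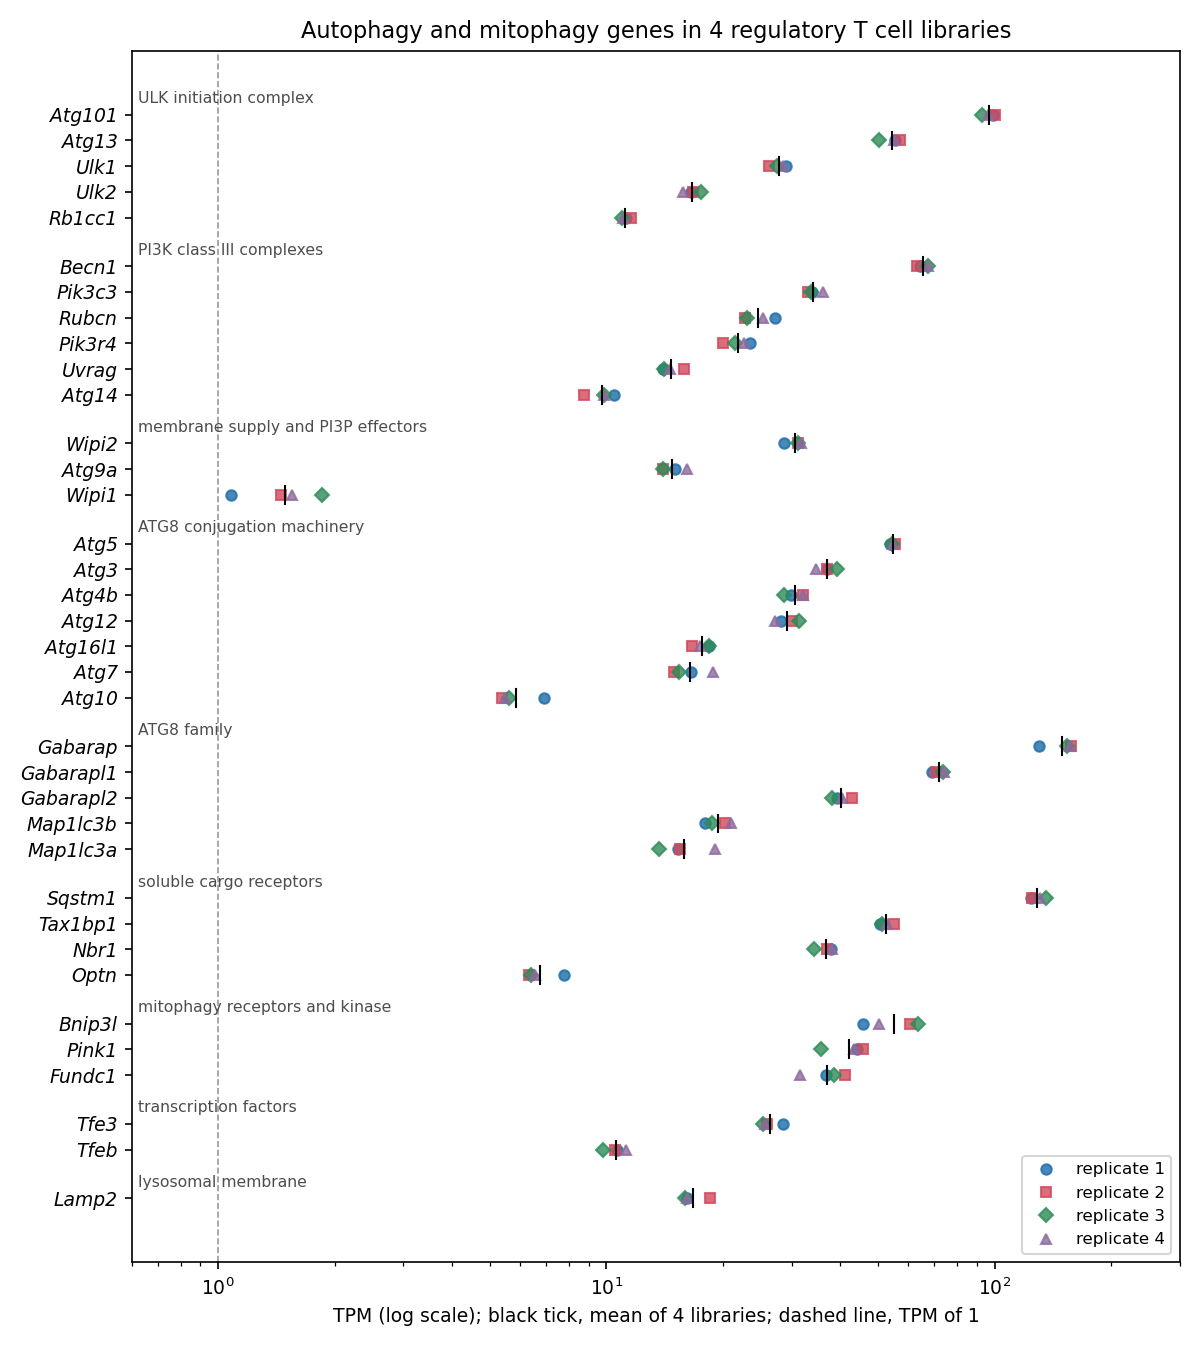
TPM on a log axis of each of the 36 genes in the 4 libraries, grouped by the role of the gene; each point is a library and each tick the mean. The levels run from 1.48 TPM for Wipi1 to 149 TPM for Gabarap, and for most genes the 4 points lie close together.

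Ordered by mean level, most neighbouring genes had overlapping ranges over the 4 libraries, 27 of 35 pairs, and 7 of these 27 kept their order within every library. The ranges of the other 8 pairs were separate. The separate pairs near the top were Sqstm1 above Atg101, Atg101 above Gabarapl1 and Gabarapl1 above Becn1. Those near the bottom were Uvrag above Rb1cc1, Atg14 above Optn and Atg10 above Wipi1, and the remaining ones were Tax1bp1 above Pink1 and Pik3c3 above Wipi2. When counts were divided by the length of the longest protein-coding transcript of each gene instead, 5 of the 8 kept their order in all 4 libraries and 3 were turned round in all 4, namely Gabarapl1 and Becn1, Pik3c3 and Wipi2, and Atg14 and Optn.

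Among the initiation genes, the small adaptor subunit Atg101 was the most abundant with either length. With exon lengths the large scaffold Rb1cc1 (FIP200) was the least abundant, 8.67-fold below it. With transcript lengths Ulk2 was the least abundant, 5.43-fold below Atg101. Atg101, which stabilises Atg13 in the complex, had 99.3, 100.1, 92.7 and 96.0 TPM in replicates 1 to 4. Rb1cc1 had 11.25, 11.54, 10.96 and 11.03 TPM, a narrow range, and on this scale under that of every other gene of the complex. Atg13, the regulatory subunit that mTORC1 phosphorylates, averaged 54.5 ± 2.89 TPM (SD, n = 4). The kinase Ulk1 had 29.1, 26.2, 27.5 and 28.5 TPM, and its paralogue Ulk2 had 16.5, 16.7, 17.5 and 15.8 TPM. Ulk1 was above Ulk2 in all 4 libraries without overlap, and the ratio of their TPM was 1.68 ± 0.126 (SD, n = 4).

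That ratio was 1 of 12 between paralogues or partners, each taken within a library and tested by exact permutation of its sign over the libraries (two-sided). The smallest p that the 16 sign patterns allow is 0.13, and every pair was at that value before and after Benjamini-Hochberg adjustment over the 12 pairs, since each ratio had the same direction in 4 of 4 libraries. The size of a ratio and its spread are therefore what the data give. Ratios between genes also depend on the length each count is divided by, and they too were computed again with transcript lengths.

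The lipid kinase genes spanned a 6.73-fold range between their means, and an 11.8-fold range with transcript lengths. Becn1, the scaffold that the alternative subunits bind, led with 64.2, 63.0, 67.4 and 67.6 TPM, while the catalytic subunit Pik3c3 (VPS34) averaged 34.1 ± 1.38 TPM and the pseudokinase Pik3r4 (VPS15) 21.9 ± 1.53 TPM (SD, n = 4). Exons of Becn1 overlap those of Cntd1 on the other strand over 43.9% of their length, and Cntd1 itself had 12 to 55 counts. Atg14, which directs the complex to autophagosome formation, had 10.4, 8.78, 9.88 and 9.85 TPM. Uvrag, which takes its place in the endosomal complex, had 14.0, 15.9, 14.1 and 14.6 TPM. The subunit of the autophagosome-forming complex was thus below that of the endosomal complex in each library, with Atg14 at 0.669 ± 0.083 of Uvrag (SD, n = 4) and at 0.353 of it with transcript lengths. Rubcn, which inhibits the Uvrag complex and also serves LC3-associated phagocytosis, averaged 24.6 ± 2.11 TPM, above both.

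The WIPI proteins read PI3P, and their 2 genes in the set were far apart. Wipi2, which recruits Atg16l1 to the forming membrane, had 28.7, 31.1, 31.2 and 31.7 TPM. Wipi1 had 1.08, 1.45, 1.85 and 1.55 TPM from 60, 110, 177 and 103 counts. Wipi1 was the lowest of all 36 genes, its range did not meet that of the next gene, Atg10, and only 0.944% of expressed protein-coding genes lay below it. The ratio of Wipi2 to Wipi1 was 21.4 ± 4.07, and 33.0 with the length of the longest protein-coding transcript. Atg9a, the lipid scramblase carried on the vesicles that seed the membrane, averaged 14.8 ± 1.03 TPM. It shares 31.8% of its exon bases on the same strand with Gm29253, to which 0 counts were assigned, and fragments in shared bases count for neither gene.

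The conjugation genes were all present, and the reaction steps differed in level. Atg7, the E1-like enzyme of both reactions, averaged 16.4 ± 1.71 TPM. Its E2-like partner for ATG8 proteins, Atg3, averaged 37.0 ± 1.88 TPM, while the E2-like enzyme for Atg12, Atg10, averaged 5.84 ± 0.705 TPM. Atg10 was the lowest of these genes with either length, while Atg5 was the highest with exon lengths, 9.34-fold above it, and Atg4b with transcript lengths, 10.2-fold above it. Atg5, the acceptor of Atg12, had 53.8, 55.4, 54.6 and 54.7 TPM and varied less than any other member. Atg12 itself averaged 29.1 ± 1.87 TPM and Atg16l1, the subunit that places the conjugate on membranes, 17.7 ± 0.860 TPM. Both depended on the length used: with transcript lengths the level of Atg12 was multiplied by 0.380 and that of Atg16l1 by 2.24. Atg4b, the main protease that trims ATG8 proteins before conjugation and releases them later, averaged 30.7 ± 1.69 TPM, and its relative Atg4c, which is not among the 36, averaged 1.63 ± 0.401 TPM (SD, n = 4).

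The ATG8 genes encode the proteins on which these reactions act, and their reading frames end in the site at which the chemistry takes place. An ATG4 protease cuts after a glycine near the end and leaves that glycine free to be joined to lipid. The last 36 bases of the reading frames of Map1lc3a and the 3 GABARAP genes, on the plus strand of mm10 from the GENCODE M21 transcripts, are shown to place that site, with the codon of the last glycine in capitals and the stop codon at the end.
Map1lc3a, chr2:155277602-155277637: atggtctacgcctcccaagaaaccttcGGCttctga
Gabarap, chr11:69994489-69994524: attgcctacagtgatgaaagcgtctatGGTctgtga
Gabarapl1, chr6:129541132-129541167: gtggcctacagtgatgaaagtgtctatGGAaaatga
Gabarapl2, chr8:111952370-111952405: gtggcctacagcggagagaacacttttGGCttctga
In each of these frames 1 codon follows the glycine codon before the stop. The glycine is at codon 120 in Map1lc3a and at codon 116 in the 3 GABARAP genes. Over the aligned bases of the coding sequences, with gaps left out, Gabarap was 74.9% identical to Gabarapl1 and 64.6% to Gabarapl2. The LC3 genes were 77.5% identical to each other, and identity between the subfamilies was 54.4% to 61.0%.

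Transcripts of the GABARAP subfamily made up most of the ATG8 total. Gabarap, the most abundant of the 36 genes, had 129.8, 157.5, 153.7 and 156.0 TPM in replicates 1 to 4, with replicate 1 apart below the other libraries. Gabarapl1 had 69.2, 70.5, 73.6 and 73.9 TPM. Gabarapl2 (GATE-16) had 39.3, 42.9, 38.2 and 40.4 TPM, so that the ranges of the 3 genes were separate in this order. Gabarapl1 stood at 0.483 of Gabarap and Gabarapl2 at 0.271 of it.

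The LC3 genes, whose proteins are the usual markers of autophagosomes, were lower than every GABARAP gene when counts were divided by exon length. Map1lc3b had 17.91, 20.16, 18.69 and 20.95 TPM, and Map1lc3a had 15.3, 15.5, 13.7 and 19.0 TPM. Their ranges overlapped across libraries, although Map1lc3b was above Map1lc3a within each, at a ratio of 1.24 ± 0.121 (SD, n = 4). The summed exons of Map1lc3b are 2.86 times as long as its longest coding transcript, and with transcript lengths this ratio was 3.32. Gabarapl2 was 2.07 ± 0.115 times Map1lc3b with exon lengths, but 1.01 times with transcript lengths, where Gabarapl2 was higher in 2 of the 4 libraries. The order of Map1lc3b and Gabarapl2 thus depends on the length used.

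As shares of the summed ATG8 level, Gabarap held 50.3% ± 1.73, Gabarapl1 24.3% ± 1.08, Gabarapl2 13.6% ± 0.783, Map1lc3b 6.55% ± 0.201 and Map1lc3a 5.35% ± 0.672 (SD, n = 4). The GABARAP subfamily together held 88.1% ± 0.861, and 82.4% ± 0.895 with transcript lengths. Part of the coding transcript searched, 14.9% for Map1lc3b and 20.9% for Gabarapl2, matches processed copies elsewhere in the genome at 95% identity or more. Fragments that aligned to several places were not counted.

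**Figure D2:**
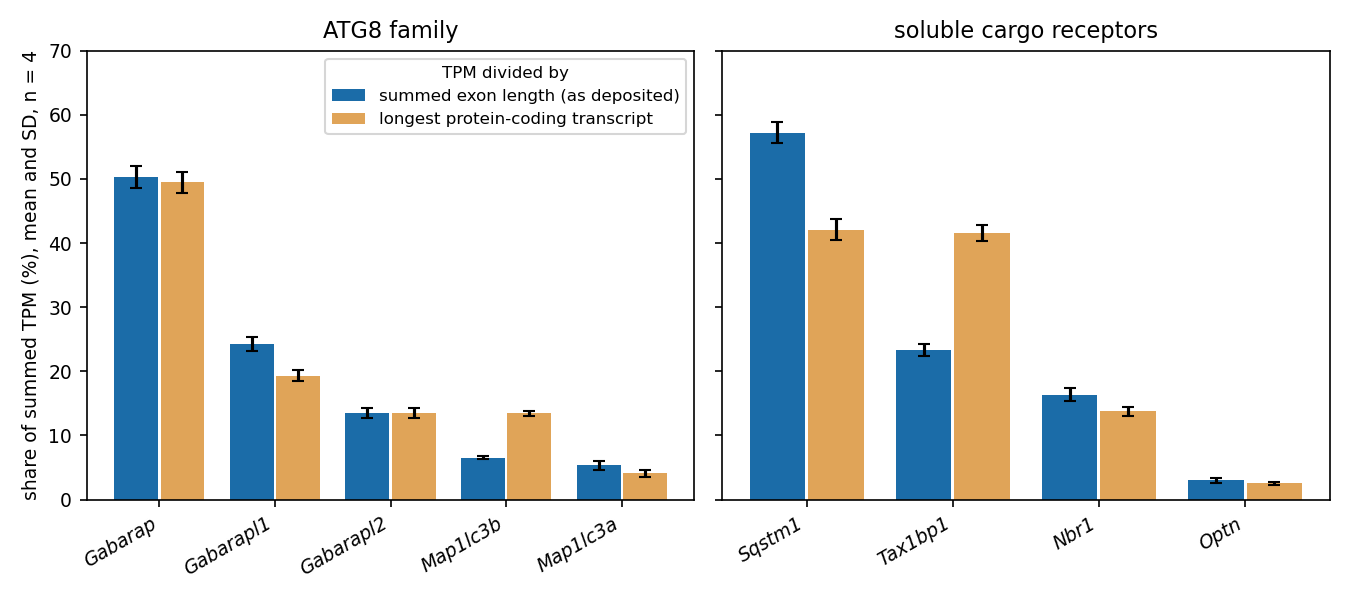
Shares of the summed TPM of the 5 ATG8 genes and of the 4 soluble cargo receptors in percent, as bars of the mean with the SD over 4 libraries, with the deposited exon length (blue) and with the longest protein-coding transcript (orange). Gabarap is highest with both lengths, at 50.3% with exon lengths, while Sqstm1 and Tax1bp1 are far apart with exon lengths (57.3% and 23.3%) and close with transcript lengths (42.1% and 41.6%).

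Soluble cargo receptors bind ubiquitinated cargo and ATG8 proteins at once, and Sqstm1 (p62) led this group. Sqstm1 had 123.8, 125.1, 135.6 and 130.6 TPM, above 84.4% of expressed protein-coding genes. Tax1bp1 had 50.8, 55.2, 51.2 and 52.7 TPM, and Nbr1, which acts with Sqstm1 in aggregates, had 37.97, 37.06, 34.21 and 38.15 TPM. The ranges of these 3 receptors were separate, and Sqstm1 stood at 3.51 ± 0.314 times Nbr1 (SD, n = 4). Optn, a receptor for ubiquitinated mitochondria and bacteria, was the lowest, with 7.76, 6.32, 6.40 and 6.54 TPM, at 0.129 ± 0.017 of Tax1bp1.

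Of the summed receptor level, Sqstm1 held 57.3% ± 1.70, Tax1bp1 23.3% ± 0.938, Nbr1 16.4% ± 0.945 and Optn 3.01% ± 0.344 (SD, n = 4). The lead of Sqstm1 over Tax1bp1 rests on the length: the level of Tax1bp1 was 2.21 times as high with transcript lengths, and the shares were then 42.1% for Sqstm1 and 41.6% for Tax1bp1. With these lengths Tax1bp1 also passed 100 TPM in all 4 libraries, so that 3 of the 36 genes did. The share of all genes above that level with transcript lengths is not given here. Among 20 further receptor genes, the list in which mitochondrial and reticulum receptors were collected, 16 were expressed. Phb2, an inner membrane receptor, averaged 439 ± 12.5 TPM and Fkbp8, an outer membrane receptor, 193 ± 10.1 TPM. Wdfy3 averaged 0.0998 ± 0.0253 TPM, and Calcoco2 (NDP52) had 0 counts in all 4 libraries, where 3 counts would give 0.147 TPM in the shallowest library.

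The mitophagy genes lay within 1.49-fold of each other, and all 3 were among the 7 members whose coefficient of variation over libraries was above 10%, at 15.3% for Bnip3l, 11.2% for Fundc1 and 10.3% for Pink1. Bnip3l (NIX), an outer membrane receptor that binds ATG8 proteins without ubiquitin, had 45.9, 60.5, 63.4 and 50.4 TPM in replicates 1 to 4. Fundc1, a receptor of the same kind known from hypoxia, had 36.8, 41.2, 38.5 and 31.5 TPM, so that Bnip3l was above it in each library and in range, at a ratio of 1.49 ± 0.178 (SD, n = 4). Pink1, the kinase that marks depolarised mitochondria, had 44.3, 45.8, 35.8 and 43.3 TPM. Bnip3l was highest in replicate 3, where Pink1 was lowest, and their ratio was 1.04, 1.32, 1.77 and 1.16 in replicates 1 to 4. The mean log2 ratio was 0.37 over the 4 libraries and 0.22 without replicate 3.

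All 16 further genes listed for the Pink1 pathway were expressed. The highest were Vcp, the segregase that extracts ubiquitinated proteins, at 304 ± 11.9 TPM and the import receptor Tomm70a at 247 ± 11.3 TPM (SD, n = 4). The lowest were Usp30, a deubiquitinase of the mitochondrial outer membrane, at 19.7 ± 1.494 TPM and the ligase subunit Fbxo7 at 10.8 ± 0.788 TPM. Bnip3, the closest relative of Bnip3l, had 27.7, 45.9, 49.9 and 42.9 TPM, also lowest in replicate 1 and highest in replicate 3. A stretch of 34.9% of the Bnip3l transcript matches its processed copy Bnip3l-ps, which had 11 to 48 counts.

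**Figure D3:**
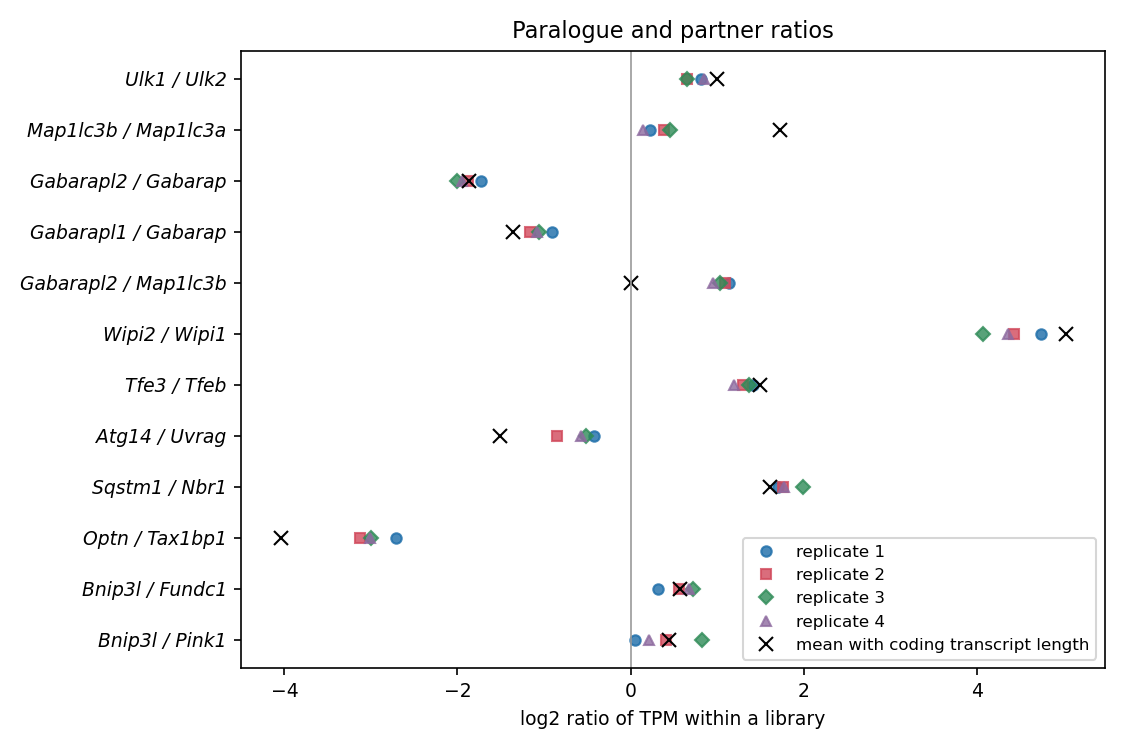
Ratio of TPM within each library for the 12 pairs of paralogues or partners, on a log2 axis; coloured points are libraries with the deposited exon length, and crosses are means with the longest protein-coding transcript. All 12 pairs stay on the same side of 0 with exon lengths, and Gabarapl2 over Map1lc3b falls to about 0 with transcript lengths.

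Tfeb and Tfe3 are transcription factors that mTORC1 keeps out of the nucleus and that switch on lysosomal and autophagy genes. Tfe3 had 28.4, 26.0, 25.4 and 25.7 TPM, and Tfeb had 10.7, 10.5, 9.80 and 11.3 TPM. Tfe3 was above Tfeb in every library, at a ratio of 2.50 ± 0.166 (SD, n = 4). Their relatives Mitf, at 0.718 TPM on average, and Tfec, with 0 counts, did not reach the expressed level, and neither did the coactivator Ppargc1a, with 1 count in each of replicates 3 and 4 and 0 in the others. Of the 11 further transcriptional regulators listed, 8 were expressed, led by the forkhead factors Foxo1, at 74.1 ± 1.12 TPM, and Foxo3, at 46.3 ± 1.31 TPM, both activators of autophagy genes. Lamp2, the lysosomal membrane protein needed for fusion and for chaperone-mediated autophagy, had 16.2, 18.5, 16.0 and 16.1 TPM. The levels of Tfe3, Tfeb and Lamp2 were 1.98, 1.76 and 1.93 times as high with transcript lengths.

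These factors bind a palindromic E-box, CACGTG, and favour its extension TCACGTGA, which contains the shorter motif. RefSeq promoters (GRCm38.p6, 250 bases before to 50 after a start) were at hand for 29 of the 36 genes, and both strands read the same for a palindrome. CACGTG occurred in promoters of 5 of the 29 genes (17.2%), namely Atg14, Atg3, Atg5, Atg7 and Rubcn, and of 8.09% of all 27025 genes with a promoter. The matches of Atg7 and Rubcn lay within the deposited span of the gene, and that of Atg14 began 1 base upstream of its start. TCACGTGA occurred in 1 of the 29, Atg3, and in 1.12% of all genes. Atg3 is shown because it held CACGTG at 2 places upstream of its start, both on the plus strand and outside its deposited exons. The CACGTG letters are in capitals, and only the second place has the extended form.
Atg3, chr16:45158723-45158752: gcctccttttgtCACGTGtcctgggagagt
Atg3, chr16:45158746-45158775: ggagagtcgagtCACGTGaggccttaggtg
The first match begins 94 bases and the second 71 bases upstream of the RefSeq start. A match describes the letters of the window and not binding, which was not measured here.

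Genes around the 36 in the pathway were for the most part expressed too. In 8 lists of further genes (core autophagy, receptors, the Pink1 pathway, fusion, lysosomal proteins, the proton pump, transcriptional regulators, and the mTORC1 and AMPK inputs), 115 of 124 genes (92.7%) reached 1 TPM in every library. Further core genes were all expressed, 14 of 14, from Ambra1, a Becn1 partner, at 57.1 ± 4.57 TPM and Vmp1, a scramblase of the reticulum, at 56.1 ± 2.57 TPM down to Stx17, the fusion syntaxin of autophagosomes, at 8.97 ± 0.378 TPM and Atg4c. All 13 fusion genes were expressed, from the GTPase Rab7 at 312 ± 6.75 TPM and the SNARE Ykt6 at 156 ± 3.81 TPM to Vps18, a tethering subunit, at 22.7 ± 2.33 TPM and the tether Epg5 at 16.8 ± 1.496 TPM.

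All 16 proton pump genes were expressed, with Atp6v1f (163 ± 8.28 TPM) and Atp6ap1 (122 ± 5.40 TPM) highest and Atp6v0a1 (14.9 ± 1.18 TPM) and Atp6v1h (14.5 ± 1.12 TPM) lowest. With transcript lengths Atp6v1h was 3.46 times as high, at 49.97 TPM, and no longer among the 2 lowest. Of 20 genes for lysosomal membrane proteins and hydrolases 19 were expressed, led by the sphingolipid activator Psap at 276 ± 16.1 TPM and Lamp1 at 167 ± 9.56 TPM, with Mcoln1, a lysosomal calcium channel, at 11.3 ± 0.232 TPM and Cd63, a membrane tetraspanin, at 0.268 ± 0.118 TPM lowest. Of 14 genes upstream of Ulk1 13 were expressed, led by the AMPK subunit Prkag1 at 254 ± 11.1 TPM and the GTPase Rraga at 186 ± 16.5 TPM, while the AMPK subunits Prkab2, at 9.39 ± 0.673 TPM, and Prkaa2, at 0.326 ± 0.149 TPM, were lowest. Over the 8 lists transcript lengths moved 15 of the 124 means by over 1.5 times, among them those of Phb2, Fkbp8, Cd63 and Mcoln1, which were higher, and of Tomm70a, which was multiplied by 0.460. Tomm70a and Foxo3 were then no longer among the 2 highest of their lists, nor Mcoln1 and Vps18 among the 2 lowest. Trac left the 2 highest cell markers as well.

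**Figure D4:**
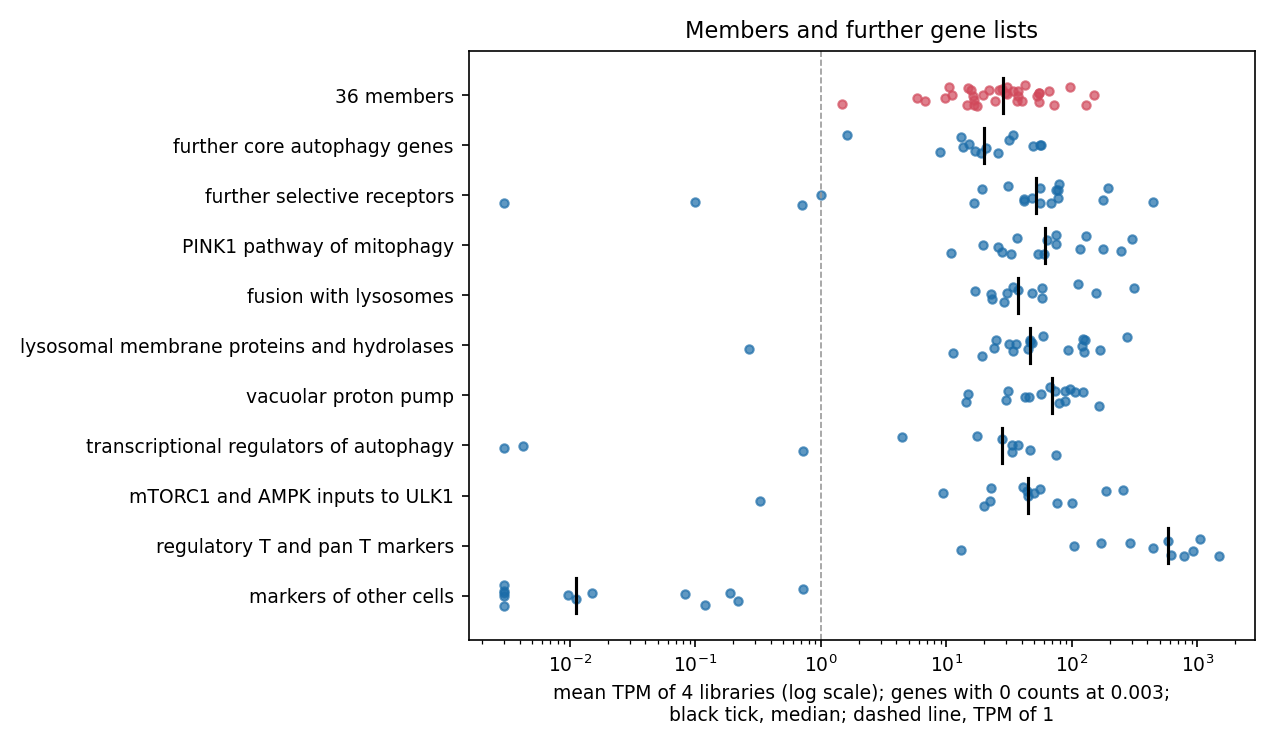
Mean TPM over 4 libraries of each gene on a log axis, for the 36 genes and for the lists around them, with the median of each list as a tick. The 36 genes run from 1.48 to 149 TPM with a median of 28.5, most pathway genes lie above 1 TPM, and the markers of other cells lie below it.

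The 36 genes varied little between libraries. The coefficient of variation (CV) of CPM, the counts scaled for depth with the TMM method, had a median of 5.45% over the members, beside 6.49% over the 11593 expressed genes and 5.86% over the 3032 expressed genes whose mean level lay between the members' quartiles. A CV over 10% was seen in 7 of the 36 genes (19.4%) and in 28.2% of all expressed genes, which were not matched to the members in level. Wipi1 varied most, at 21.9%, of which counting alone would give 10.1%. Bnip3l followed at 15.3% with 1.75% from counting, then Map1lc3a at 14.1% with 5.79%. At the other end were Atg5, at 1.43% where counting would give 2.21%, and Rb1cc1, at 2.28% with 1.95%. The biological coefficient of variation of a gene is an estimate of the spread left after counting error. The fit draws it towards the trend over genes of like level, so it is not the spread of that gene alone. It was above the trend over genes of like level in 9 of the 36 genes. That share was smaller than the 34.0% of all genes fitted. For Bnip3l it was 0.083 beside a trend of 0.058.

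On the same CPM scale, no library held most of the high or low values. By TPM, the scale of the values given gene by gene, the counts differ for some libraries. Replicate 2 had the highest value of 12 genes (33.3%), beside 27.9% of expressed genes, and replicate 1 that of 7 (19.4%), beside 28.5%. Replicate 4 had the lowest value of 4 genes (11.1%), beside 21.6% of expressed genes, and the other libraries that of 10 or 11 each.

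**Figure D5:**
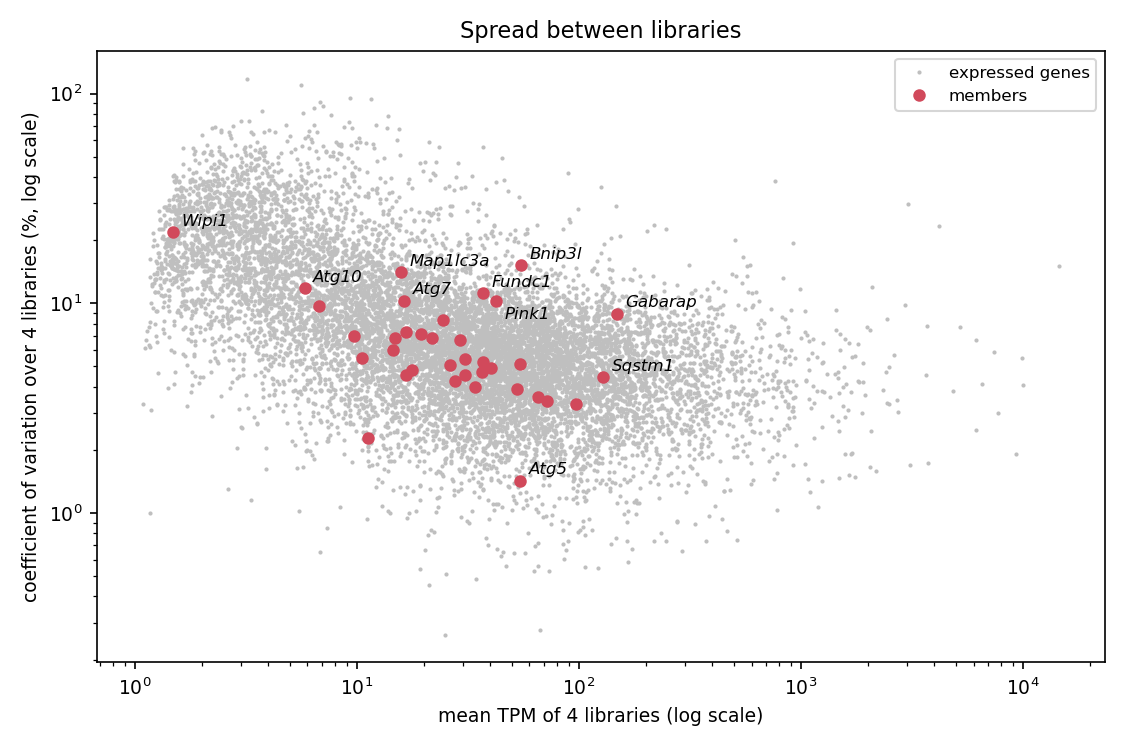
Coefficient of variation over the 4 libraries, in percent, against mean TPM, both on log axes; grey points are the expressed genes and coloured points the 36 autophagy and mitophagy genes. Wipi1 (21.9%), Bnip3l (15.3%) and Map1lc3a (14.1%) are the highest of the 36, and Atg5 (1.43%) is the lowest.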

How the data were processed

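The deposited values are raw counts, which the authors obtained with featureCounts 1.4.6-p4 from mm10 alignments and GENCODE M13, per the file headers. Settings recorded there require both mates to align, count reverse-stranded over exons, and ask for no counting of fragments with several alignments or of overlapping features. Genes with near-identical copies can thus be undercounted, and summed exon length, also deposited, can exceed that of the main transcript. For the aligner, a version was not given in the sources used here. The labels call the assay total RNA-seq, while the linked library protocol is named for polyA+ RNA.

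Symbols came from GENCODE M21 by Ensembl identifier (50376 of 50600 genes matched). TPM was computed from the counts and the deposited length. edgeR 4.0.16 gave TMM scaling and an intercept-only dispersion fit on expressed genes, checked on simulated data, and DESeq2 1.42.0 gave alternative size factors. Copies were searched with blastn 2.17.0, taking matches of at least 95% identity. No protein table was used, so coding sequences stand in for the planned protein comparison. All 36 members are named, as are the 2 highest and 2 lowest genes of each list around them, with Bnip3, while Foxp3 and Mitf were chosen after their values were seen. The members and lists were chosen with earlier results of these data known. A few genes of the surrounding lists and 1 sequence are not reported here. Other lengths, thresholds, scalings and filters were tried, and each library was left out in turn. Floors and the counting share of the spread cover counting error only.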

Additional observations from a re-analysis of the deposited data

Results flagged for a closer look

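In 94 series of 4 values (TPM of single genes, shares and ratios), 7 had a highest or lowest library whose gap to its neighbour took more than 0.829 of the whole range. Chance gives about 1 such series in 20. Among the 36 genes these were Gabarap, low in replicate 1 (gap of 0.860 of the range), Atg10, high in replicate 1 (0.831), Optn, high in replicate 1 (0.845), and Lamp2, high in replicate 2 (0.922). The share of Optn among the soluble receptors was high in replicate 1 too (0.922). In the surrounding lists these were Atg4c, low in replicate 4 (0.850), and Prkag1, high in replicate 2 (0.869). Whether anything sets these libraries apart was not tested.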

How the results depend on the processing

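No direction of the 12 ratios was reversed without any library, and leaving out each replicate in turn moved none by more than its spread, although the log2 ratio of Bnip3l to Pink1 was 0.22 without replicate 3 and 0.37 with all 4. Without each replicate in turn there were 31 to 32 genes at 10 TPM or more, with a median member CV of 5.26% to 5.73% and a common biological coefficient of variation of 0.0818 to 0.0900 (0.0852 with all 4). No paired analysis was possible because there is 1 group. As FPKM (counts divided by exon length and by all counts of the library), 13 of the 36 genes reached 10 and 0 reached 100. Unlike TPM, that scale has no common total, and the share of all genes reaching these levels on it is not given here. The median of the members' means was 34.3 TPM with transcript lengths and 30.0 TPM over protein-coding genes only. The matching median of expressed genes is not given for either setting. With transcript lengths the ATG8 shares were 4.10% for Map1lc3a, 13.5% for Map1lc3b and 19.4% for Gabarapl1, and the receptor shares 42.1% for Sqstm1, 2.53% for Optn, 13.8% for Nbr1 and 41.6% for Tax1bp1. Transcript lengths moved 27 of the 36 mean levels by more than their SD, 7 of them by over 1.5 times. With no filter on low counts the median CV of all genes was 21.7%. Depth limits Wipi1 among the 36 genes, and the genes near 0 around them.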
